A study of Homo sapiens with 5 samples.

Results

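Unpaired intergenic distal calls are transcription start site calls that lie away from every annotated gene and have no partner on the other strand just upstream. They were selected on the called positions themselves. A call was a member when it lay on chromosomes 1 to 22 or X, outside every RefSeq gene and more than 1000 bp from both ends of every gene, with no call of the opposite strand 0 to 1000 bp upstream of it. Upstream means a lower coordinate for a forward call and a higher one for a reverse call. Of the 28283 calls in both lists, 28159 lay on these chromosomes, 2047 were intergenic and distal, and 1378 of those were unpaired, which was 67.3% of the intergenic distal calls and 4.89% of all calls on these chromosomes. There were 669 forward and 709 reverse members. The other 669 intergenic distal calls, which had an upstream partner, are called paired below and serve as the comparison.

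The calls came from PRO-seq, which maps engaged RNA polymerases by letting them add biotin-labelled nucleotides in a run-on reaction and sequencing the labelled RNA. The cells were HUDEP-2, an immortalised human erythroid progenitor line. The series has 5 libraries: 3 single-cell clones edited with sg1617, a guide against the erythroid enhancer of BCL11A, that carry a 1 bp insertion, a 13 bp deletion or a 15 bp deletion, with 1 library each, and 2 libraries of wild-type cells. The calls are 2 lists deposited for the series and made on 1 alignment that no label ties to a library. That alignment is named for the cell line without the guide, and whether any edited clone contributed to it is not stated. Edited clones and wild-type cells could therefore not be compared. Each edited group is 1 clone, and the lists have no replicates. Every call had a score of 0, and how many reads support it is unknown. The intervals given with shares below are Wilson 95% intervals, and with the p-values they cover counting error only. Neighbouring calls can come from the same transcript and are not independent.

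Most human promoters and active enhancers are transcribed in both directions from a nucleosome-depleted region, so a start site usually has a divergent partner on the other strand. Polymerases also continue past the poly(A) site of a gene until termination, and the RNA they make there is nascent, unstable and read in the direction of the gene. In erythroid cells a small set of genes, led by the globins, is transcribed at very high rates. Start site calls are made from where nascent RNAs begin in the reads, and whether transcription started at any call was not tested.

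The starts of genes that have members past their ends are shown here, since the sequence at a called start can be read against the type of gene. They are the genes with 4 or more members and a called promoter, and 3 of the genes with 3 members, EEF1A1 and TPT1 for their pyrimidine run and TFRC as a gene of red cell iron uptake; the other genes with 3 members are not printed. The 70 bases of each promoter run from 50 bases before to 20 bases from the annotated start on the gene's strand, and the 6 capitals begin at the called base. The sequences are RefSeq's for GRCh38.p14. The first 5 hold a run of 5 pyrimidines (C or T) that begins at the called base or 1 base on.
RPS12 (chr6:132814519-132814588, forward): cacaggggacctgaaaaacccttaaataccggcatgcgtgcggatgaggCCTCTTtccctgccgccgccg
GBGT1 (chr9:133163895-133163964, reverse): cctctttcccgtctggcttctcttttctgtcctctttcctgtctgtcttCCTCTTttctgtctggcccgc
SNHG5 (chr6:85678714-85678783, reverse): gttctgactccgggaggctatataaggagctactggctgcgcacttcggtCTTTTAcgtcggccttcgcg
EEF1A1 (chr6:73521013-73521082, reverse): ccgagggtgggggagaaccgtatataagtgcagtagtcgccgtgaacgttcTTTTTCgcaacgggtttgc
TPT1 (chr13:45341164-45341233, reverse): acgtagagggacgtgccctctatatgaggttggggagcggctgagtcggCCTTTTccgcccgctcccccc
UCP2 (chr11:73983183-73983252, reverse): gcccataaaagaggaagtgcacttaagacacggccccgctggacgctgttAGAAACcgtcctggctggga
FKBP5 (chr6:35688896-35688965, reverse): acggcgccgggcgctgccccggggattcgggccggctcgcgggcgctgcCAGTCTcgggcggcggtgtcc
MIR17HG (chr13:91347637-91347706, forward): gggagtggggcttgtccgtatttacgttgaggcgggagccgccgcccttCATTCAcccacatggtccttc
LMBRD2 (chr5:36151868-36151937, reverse): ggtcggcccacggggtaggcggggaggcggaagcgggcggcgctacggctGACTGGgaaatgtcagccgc
DNAJB12 (chr10:72354900-72354969, reverse): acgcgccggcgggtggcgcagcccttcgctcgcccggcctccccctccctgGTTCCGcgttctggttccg
TFRC (chr3:196082071-196082140, reverse): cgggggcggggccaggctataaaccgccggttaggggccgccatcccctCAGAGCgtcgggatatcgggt

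A pyrimidine run at the first transcribed base is a known feature of genes for ribosomal proteins and translation factors. Of the 19 genes with 3 or more members past their ends and a call within the window shown of a promoter, 5 held such a run, the first 5 printed above. Across all called promoters in RefSeq's promoter table, 578 of 8348 held it, or 6.92%. The run was searched for after the sequences had been seen, and its presence says nothing of the members themselves. The called base of a promoter may be 1 base upstream of the transcribed one: a pyrimidine followed by a purine, the common initiation step, stood 1 base on from the call at 43.2% of forward and 45.1% of reverse promoter calls, and at the call itself at 32.9% and 31.0%. The bases at the members are not shown, since no genome was used here.

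The distance to the nearest gene end had a median of 5500 bp, with quartiles of 2087 and 15119 bp, in unpaired calls, and a median of 4927 bp, with quartiles of 2477 and 10450 bp, in paired calls. Within 10 kb of a gene end lay 910 of 1378 unpaired calls (66.0%, 63.5 to 68.5%) and 495 of 669 paired calls (74.0%, 70.5 to 77.2%). The unpaired share was lower by 7.95 percentage points (odds ratio 0.684, two-sided Fisher's exact test, adjusted p = 0.000426 over the 5 shares tested). The 2 distributions differed at both extremes: 330 unpaired calls (23.9%) against 126 paired calls (18.8%) lay within 2 kb of a gene, and 77 unpaired calls (5.59%) against 10 paired calls (1.49%) lay more than 50 kb from any gene. Unpaired calls thus had the larger share both next to genes and far from them, and these last 2 contrasts were not tested. Beyond 100 kb from any gene lay 25 unpaired calls and 4 paired calls.

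**Figure D1:**
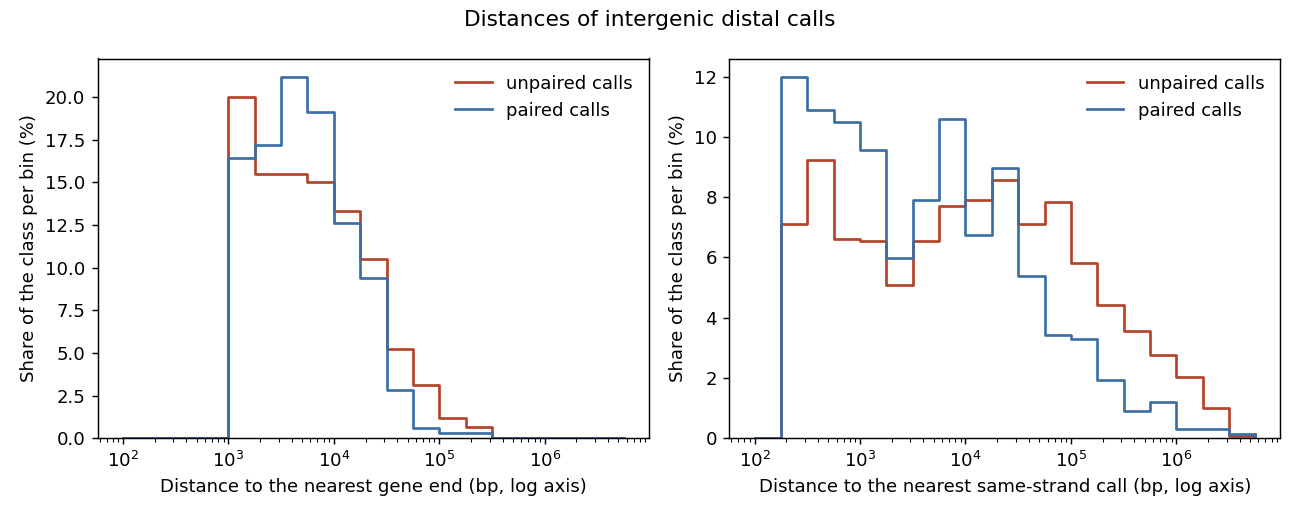
Distance to the nearest gene end (left) and to the nearest call of the same strand (right), on log axes in bp, as the share of the 1378 unpaired calls (red) and of the 669 paired calls (blue) in each bin. The unpaired calls reach farther from genes, and their median distance to a same-strand call was 11.1 kb against 3.30 kb in paired calls.

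The gene behind a call, meaning the nearest gene end on the side the call's transcript comes from, was read toward the call for most members where its strand was known. A strand for that gene was available in the promoter table for 786 unpaired and 363 paired calls. The gene was read toward the call, so that the call lay past its 3′ end in its own direction, for 466 of 786 unpaired calls (59.3%, 55.8 to 62.7%) and for 176 of 363 paired calls (48.5%, 43.4 to 53.6%). The difference was 10.8 percentage points (odds ratio 1.55, Fisher's exact test, adjusted p = 0.000875). The selection bears on this contrast. A gene behind that is read away has its start toward the call. A call near that start on the gene's strand is an opposite-strand call upstream, and if close enough it makes the intergenic call paired. The pairing rule itself can thus favour this direction, and how much it does so was not tested. Over all 1378 members, 466 (33.8%) thus had a gene read toward them, 320 (23.2%) had a gene read away from them, and 592 (43.0%) had a gene of no known strand behind them, of which 270 were pseudogenes and 155 protein-coding. The 466 lay past 364 different genes, and 316 of the 466 lay past a protein-coding gene and 150 past a long non-coding RNA gene. The gene ahead ran in the direction of the call for 396 of 777 unpaired calls (51.0%) and for 192 of 358 paired calls (53.6%). Where the gene ahead lay 1 to 2 kb away, it did so for 70 of 107 unpaired calls (65.4%, 56.0 to 73.8%) and for 24 of 33 paired calls (72.7%, 55.8 to 84.9%). At 2 to 5 kb these shares were 43.7% of unpaired and 42.6% of paired calls, and the share of unpaired calls lay between 47.6 and 52.5% in the bins farther out.

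The share with the gene behind read toward the call was highest next to genes. At 1 to 2 kb past a gene end, 117 of 157 unpaired calls (74.5%, 67.2 to 80.7%) and 20 of 48 paired calls (41.7%, 28.8 to 55.7%) had that gene read toward them. At 2 to 5 kb the share was 70.8% (62.7 to 77.8%) of unpaired and 60.9% (49.1 to 71.5%) of paired calls, with intervals that overlap. At 5 to 10 kb it was 59.8% of unpaired and 45.1% of paired calls. From 10 to 20 kb the unpaired share was 45.1% and the paired share 45.8%, and at 20 to 50 kb they were 50.4% and 51.4%. Past 10 kb the intervals of the unpaired share thus held 50% in every bin. When only calls over 5000 bp from every gene were kept, the difference between the classes was 4.95 percentage points (Fisher's exact test, adjusted p = 0.283). No same-strand call lay within 10 kb of 706 unpaired and 217 paired calls. Among those of them with a gene of known strand behind, the share was 55.2% in unpaired and 59.8% in paired calls. The difference was -4.65 points, in the other direction (Fisher's exact test, adjusted p = 0.733). Within forward calls alone the difference was 7.97 points (Fisher's exact test, adjusted p = 0.105).

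**Figure D2:**
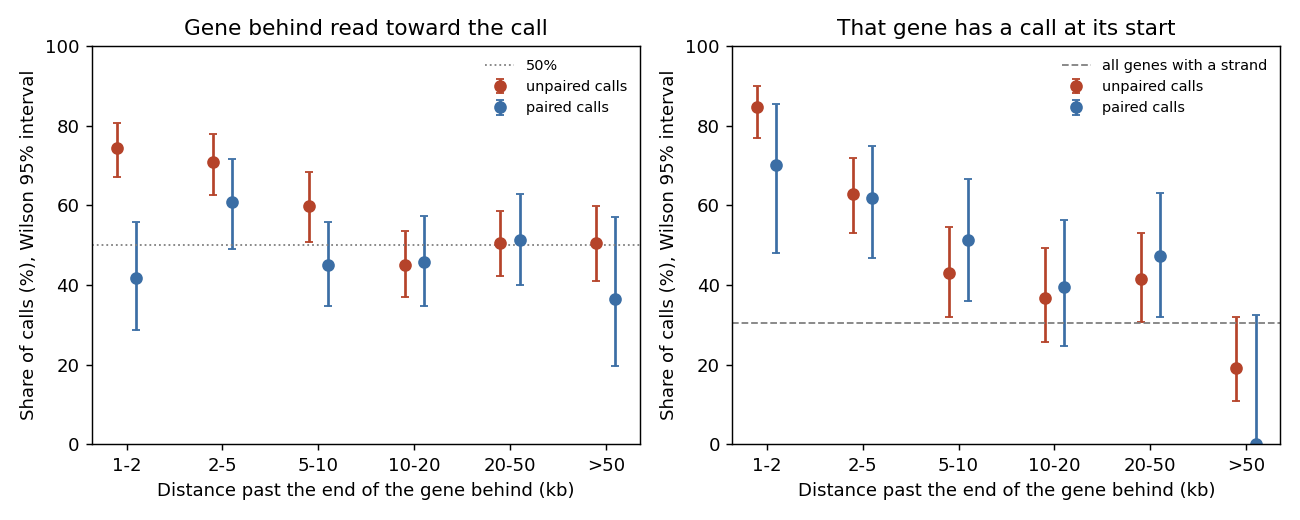
Left, share of calls (%) whose gene behind is read toward them, by distance past that gene's end in kb. Right, share of those genes (%), counted per call, with a call of their own strand within 500 bp of their start. Points are unpaired (red) and paired (blue) calls, bars are Wilson 95% intervals, the dotted line marks 50% and the dashed line the 30.5% of all genes with a known strand that have such a call. Both shares are highest for unpaired calls at 1 to 2 kb, at 74.5% and 84.6%.

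Genes behind members were often called at their own start. Of the 466 members with a gene read toward them, 251 (53.9%, 49.3 to 58.3%) had a gene with a call of its strand within 500 bp of its start, and of the 176 such paired calls, 89 (50.6%, 43.2 to 57.9%). Among all 27195 genes with a known strand, 8306 had such a call, or 30.5%. The difference of 3.29 points between unpaired and paired calls did not pass the test (Fisher's exact test, adjusted p = 0.479). Counted per gene, 178 of 364 genes (48.9%) behind unpaired calls and 61 of 139 (43.9%) behind paired calls had one. Among genes read away from the call, which place their own start nearest to it, the shares were 137 of 320 (42.8%) for unpaired and 120 of 187 (64.2%) for paired calls. A call at such a start is an opposite-strand call upstream, the kind whose presence nearby defines paired calls. Close to genes the selection can thus set part of this contrast, which was not tested. For unpaired calls the share of called genes was 84.6% (99 of 117) at 1 to 2 kb past the end, 62.9% (61 of 97) at 2 to 5 kb, 42.9% (30 of 70) at 5 to 10 kb, 36.7% at 10 to 20 kb, 41.4% at 20 to 50 kb and 19.2% (10 of 52) past 50 kb. For paired calls it was 70.0, 61.9, 51.4, 39.4 and 47.2% in the bins up to 50 kb and 0 of 8 calls past 50 kb (0.0 to 32.4%), and the intervals of the classes overlap in every bin. With calls over 5000 bp from every gene only, the share was 34.4% for unpaired and 49.4% for paired calls, a difference of -15.1 points (Fisher's exact test, adjusted p = 0.0224).

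The previous call on the same strand was located for each of these members, at any distance. For 162 of the 466 members (34.8%), it lay between the gene's end and the member. For 166 (35.6%) it lay in the gene or up to 500 bp before its start, and for 138 (29.6%) it lay before the gene, so that the gene itself had no such call. Among the 214 members within 5000 bp of the gene's end, 26 (12.1%) had their previous call before the gene. Among the 252 members farther out, 112 (44.4%) did. Of the 364 genes, 189 held a call of their own strand, so a previous call past the gene's end does not show that a row began in the gene.

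Members had a same-strand or a facing call nearby less often than paired calls did. A same-strand call lay within 1 kb of 316 of 1378 unpaired calls (22.9%, 20.8 to 25.2%) and of 223 of 669 paired calls (33.3%, 29.9 to 37.0%), a difference of -10.4 points (odds ratio 0.595, Fisher's exact test, adjusted p = 4.04e-06). An opposite-strand call facing the call, within 1 kb ahead of it, was found for 183 unpaired calls (13.3%, 11.6 to 15.2%) and 137 paired calls (20.5%, 17.6 to 23.7%), a difference of -7.2 points (odds ratio 0.595, Fisher's exact test, adjusted p = 0.000103). Among calls with no same-strand call within 10 kb the facing share was 6.37% in unpaired and 6.91% in paired calls, with a difference of -0.539 points (Fisher's exact test, adjusted p = 0.943). The selection bears on both contrasts. Every paired call has another call within 1000 bp by definition, and same-strand neighbours can share that partner and become paired together. The pairing rule can thus place dense stretches among the paired calls, and how much it does so was not tested. The nearest call of either strand lay at a median of 5596 bp from a member, and 205 members (14.9%) had no other call within 100 kb. The nearest opposite-strand call upstream, which the selection places beyond 1000 bp, had a median distance of 44.9 kb, and for 62 members it lay within 2000 bp.

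Most members stood alone, and a few formed long rows. With members of a strand joined when at most 1000 bp apart, 1159 members were single, 150 lay in 75 runs of 2, and 69 lay in 17 runs of 3 to 8 members. The gaps inside runs had a median of 367 bp and a minimum of 232 bp, against a minimum of 206 bp between same-strand calls in the lists as a whole. Of the 17 runs, 13 had behind them a gene read toward the run, 0 had a gene read away, and 4 had a gene of no strand in the table, among them CA1, LMO2 and HBB. All 4 of those genes have a call at 1 end that gives them the direction of their run. The first member of 16 runs lay within 2000 bp of the gene behind, and the exception was the run past the nucleoside transporter gene SLC29A1, which began at 3010 bp.

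The longest run lay past RPS12, which encodes a protein of the small ribosomal subunit (gene ID 6206, chromosome 6, 132814569 to 132817564, forward strand). Its 8 members lay 1129, 1492, 1972, 2325, 2748, 3075, 3442 and 3766 bp past the gene's end, at 132818693 to 132821330. Another 3 calls of the same strand lay in the first 1 kb past the end and 4 in the gene, so the calls followed each other from the gene into the intergenic space. The next gene ahead of the run's first member, the pseudogene HMGB1P13, was 49537 bp away.

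The run of 7 members past CA1, the carbonic anhydrase I gene of red cells, lay on the reverse strand of chromosome 8 from 85324596 to 85326339. They lay 1269, 1553, 1830, 2153, 2440, 2736 and 3012 bp past the gene, an almost even spacing with gaps of 276 to 323 bp. CA13 lay ahead at 42266 bp.

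UCP2, a mitochondrial carrier of the inner membrane (gene ID 7351, chromosome 11, 73974672 to 73983202, reverse strand), had 6 members, at 1052, 1490, 1835, 2317, 3051 and 3315 bp past its end. DNAJB13 lay 3339 bp ahead of the first of them. No call of the same strand lay in the first 1 kb past UCP2, so here the row began beyond that limit. GBGT1, a glycosyltransferase related to the enzyme of the ABO blood group, had 5 members between 1220 and 2609 bp past its end, at 133150339 to 133151728 on chromosome 9. Further calls of the same strand lay at 3018 to 4062 bp past GBGT1. They fail the distance rule because they lie near or inside the next gene, RALGDS, which is 2518 bp ahead of the run's first member. Whether they belong to the row past GBGT1 or to RALGDS was not tested.

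Among the runs of 4 were those past SNHG5, a host gene of small nucleolar RNAs (1520 to 3135 bp past its end), FKBP5, a co-chaperone of steroid receptors (1293 to 2566 bp), and LMBRD2, a membrane protein (1039 to 1917 bp). PKMP3 lay ahead of the SNHG5 run at 14787 bp and UGT3A2 ahead of the LMBRD2 run at 30486 bp. FKBP5 had no call within 500 bp of its outer start, but had one at a start inside the gene, whose promoter is printed above. SLC29A1 likewise had a call at a start inside the gene and none at its outer start.

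Runs of 3 were found past genes for cytokine signalling, globin, iron uptake and translation. CISH, a feedback inhibitor of cytokine receptor signalling, had members at 1397, 2021 and 2436 bp past its end, with HEMK1 ahead at 8926 bp. LMO2, a bridging subunit of the erythroid transcription factor complex, had them at 1440, 1747 and 2472 bp, with LINC02721 ahead at 34762 bp. HBB, the adult beta-globin gene, had them at 1185, 1478 and 1950 bp, at 5223514 to 5224279 on chromosome 11. TFRC, the transferrin receptor that takes up iron, had them at 1267, 1525 and 1800 bp and held 37 calls of its own strand. EEF1A1, the elongation factor that brings transfer RNA to the ribosome, had them at 1030, 1352 and 1678 bp. The remaining runs of 3 lay past TPT1, HNRNPK, VMP1 and SLC29A1.

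**Figure D3:**
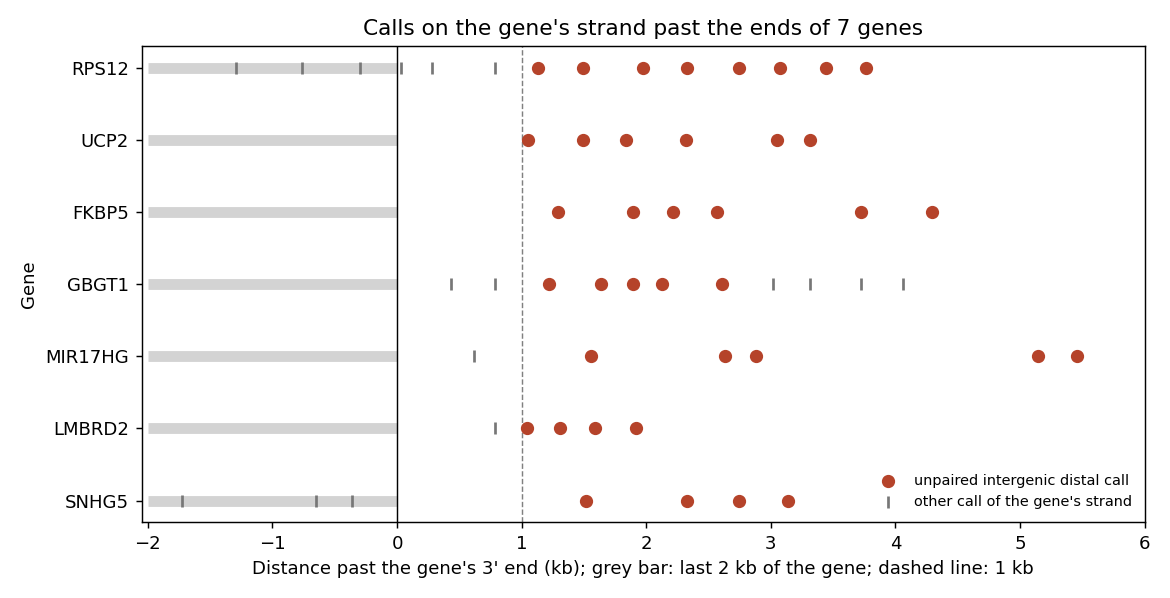
Calls on the strand of the gene past the 3′ ends of 7 genes with 4 or more members, by distance past the end in kb. Red points are unpaired intergenic distal calls, grey ticks are other calls of that strand, the grey bar is the last 2 kb of each gene and the dashed line is the 1 kb limit of the selection. RPS12 has 8 members between 1.1 and 3.8 kb, and the further calls past the members of GBGT1 lie near or inside the next gene.

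Counted by gene rather than by run, 305 of the 364 genes had 1 member past their end, 35 had 2 and 24 had 3 or more. Of those 24 genes, 18 had a call at their start, and 20 had one at any start in the promoter table. The 9 genes with 4 or more were RPS12 with 8, UCP2 and FKBP5 with 6, GBGT1 and MIR17HG with 5, and LMBRD2, SNHG5, DNAJB12 and MTCL1 with 4. MIR17HG is the host transcript of the miR-17-92 cluster of microRNAs, and its members lay at 1558, 2628, 2880, 5142 and 5458 bp past its end.

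Other genes with several members had another layout. The 4 members past DNAJB12, a co-chaperone of the endoplasmic reticulum, lay between 15786 and 41690 bp past its end. MTCL1, a microtubule-binding protein, held 0 calls of its strand, and its 4 members lay between 81223 and 184572 bp past its end. The other 3 genes with at least 3 members and no own-strand call inside were MIR29B2CHG, the host of a microRNA cluster, with members from 1362 to 3977 bp, CD34, a surface marker of blood progenitors, with members from 7479 to 11805 bp, and LINC01703, with members from 19854 to 31777 bp. The 3 members past DDIT4, a stress-induced inhibitor of growth signalling, were spread from 1259 to 50749 bp. DNAJB12, on the other strand, is the next gene ahead of DDIT4, so the members past both genes lay in the same intergenic space. FAM89A, with 4 own-strand calls inside, had members from 2216 to 4199 bp past its end. The rest of the genes with 3 members were A4GALT, TUBG1 and DDIT4-AS1.

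Gene lists of the erythroid programme were examined for members within 100 kb of either gene end. Over all 19974 protein-coding genes, 3115 had such a member, or 15.6%, and within 50 kb 1897 had one, or 9.5%. In the 7 erythroid lists together, 49 of 113 genes (43.4%) had one within 100 kb and 42 (37.2%) within 50 kb. The 49 genes had 96 different members within 100 kb. The median number of members within 100 kb of a gene was 3.0 in the globin list, 1.0 in the erythroid signalling list, 0.5 in the erythroid transcription factor and late erythroid lists, and 0 in the other 3 erythroid lists and over all protein-coding genes. Neighbouring genes of a list share members, so the counts are not of independent genes, and the lists were not tested against the other genes.

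All 10 globin genes had a member within 100 kb, but these were 6 members in all, 4 near the beta-globin cluster and 2 in the alpha-globin cluster. The 4 were the 3 of the run past HBB and a call on the far side of HBE1, so they flanked the beta-globin genes. Each of the 2 clusters is short enough for every gene in it to lie within the window, so the full count says little of single genes. HBB had its nearest member 1185 bp away. HBA2 had its nearest at 1051 bp, position 174761, and HBA1 at 1761 bp, position 179283, each past the 3′ end and in the direction of the gene. HBA1 and HBA2 are nearly identical, and a read from a shared stretch could belong to either gene, so their members are uncertain in that respect. Most of the other globin genes shared these calls. The nearest member of HBQ1, at 1.18 kb, was the call past HBA1, which thus lay closer to HBQ1 than to HBA1. HBM and HBZ had the call past HBA2 as their nearest, at 8.0 and 20.3 kb. HBD, HBG1 and HBG2 had the nearest call past HBB, position 5224279, at 8.56, 24.0 and 28.9 kb. HBE1 had its nearest at 34.0 kb, position 5303945.

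Of the erythroid transcription factors, 8 of 16 had a member within 100 kb. The nearest lay past the 3′ end in the direction of the gene for LMO2 (1.44 kb), NFE2, a leucine zipper activator of the globin genes (2.02 kb), and KLF1, the factor that activates adult beta-globin (1.82 kb). GFI1B, a repressor, had its nearest member 3.3 kb past its end on the opposite strand, and TAL1, the helix-loop-helix partner of LMO2, had one 34.1 kb past its end on the opposite strand. GATA1 had one 48.9 kb before its start, MYB 63.1 kb and GATA2 92.2 kb before theirs. Erythroid signalling had 7 of 13 genes with a member. Those past the end in the gene's direction were CISH (1.4 kb) and PIM1, a kinase induced by cytokine signals (1.65 kb, with 4 members within 100 kb). BCL2L1, ITGA4, LYN, KIT and EPOR, the erythropoietin receptor, had theirs at 2.62, 9.99, 31.8, 86.1 and 98.0 kb, none of them both past the end and in the gene's direction.

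The late erythroid list had 6 of 12 genes with a member, with CA1 at 8 members within 100 kb the highest of all genes of the erythroid lists. CA2, a second carbonic anhydrase of red cells, had its nearest 2.27 kb past its end and AHSP, the chaperone of alpha-globin, 2.0 kb past its end, both in the direction of the gene. SLC40A1, the iron exporter, TRIM58, a ubiquitin ligase of late erythroblasts, and PRDX2, a red cell peroxiredoxin, had theirs before their starts, at 2.62, 1.87 and 80.8 kb. In the haem and iron list 6 of 18 genes had a member. TFRC had 6 of them, 4 within 50 kb. FTH1, a subunit of the iron store ferritin, had its nearest 3.96 kb before its start, FTL, the other subunit, 1.31 kb before its start, and SLC25A37, the mitochondrial iron importer, 1.19 kb before its start on the opposite strand. SLC25A38 and ALAD, both of haem synthesis, had theirs at 16.4 and 42.5 kb past their ends.

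Of the red cell membrane genes 6 of 24 had a member. BSG and CD36, both surface glycoproteins, had theirs 1.19 and 1.01 kb past their ends in the direction of the gene. EPB41, a membrane skeleton protein, GYPC, glycophorin C, and SLC4A1, the band 3 anion exchanger, had theirs before their starts on the opposite strand, at 3.23, 9.99 and 13.7 kb. Of the fetal globin regulators, a list that includes repressors and cofactors, 6 of 20 had a member, all at 19.4 kb or more, and 4 of 20 within 50 kb. NFIA and NFIX, nuclear factor I proteins, had their nearest 19.4 and 30.3 kb before their starts, and ZBTB7A, a repressor of fetal globin, 22.4 kb before its start. EHMT2, MBD3 and MTA2 had theirs at 37.0, 62.9 and 79.1 kb. The ribosomal protein list had 6 of 25 genes with a member, or 24.0%.

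Markers of other cell types served as a check on the cell line. Within 100 kb, 2 of 15 lymphoid genes (PAX5 among them), 1 of 10 megakaryocyte genes (ITGA2B), 2 of 15 neuronal genes (GRIN1 and SLC17A7) and 2 of 15 hepatocyte genes (AHSG among them) had a member. Within 50 kb these counts were 0, 0, 1 and 2. The myeloid list had 7 of 14 genes with a member, the same share as the erythroid transcription factors with 8 of 16, and 5 of 14 within 50 kb. AZU1, PRTN3 and ELANE, granule proteases and relatives that lie side by side on chromosome 19, shared a single member at 792058, which was 35.8, 48.9 and 60.2 kb away. CEBPE and FCGR3A had members at 4.53 and 5.62 kb, and CEBPA and S100A8 at 36.3 and 93.4 kb. A member near a gene therefore did not by itself separate erythroid from myeloid lists at this window.

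**Figure D4:**
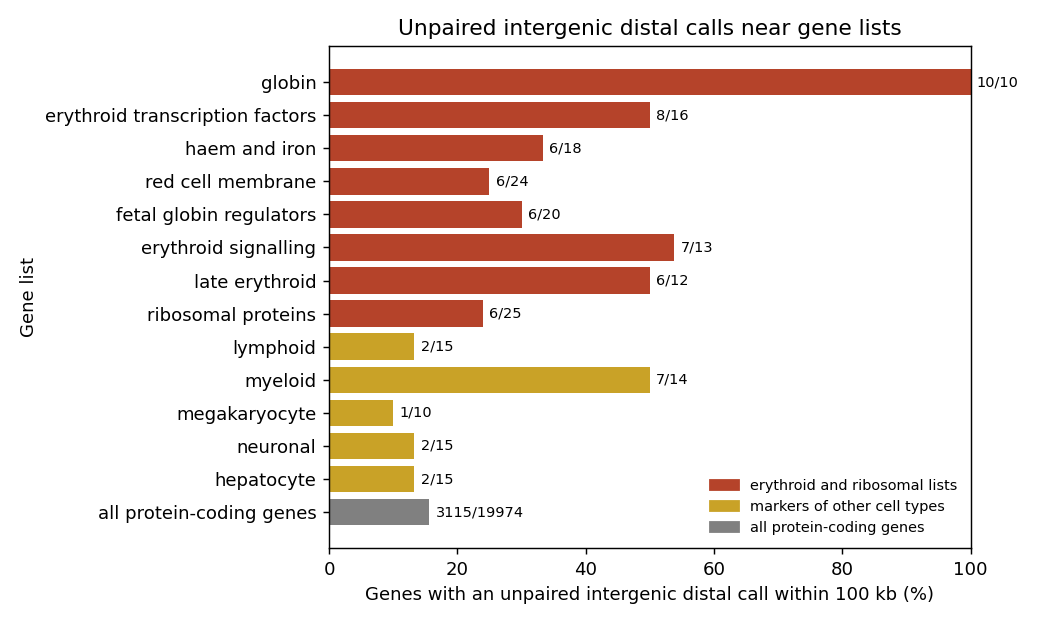
Share of the genes of each list (%) with an unpaired intergenic distal call within 100 kb of either gene end, with the counts printed beside the bars. Red bars are erythroid and ribosomal lists, yellow bars markers of other cell types, and the grey bar all 19974 protein-coding genes, at 15.6%. The globin bar of 10 of 10 genes rests on 6 members.

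By chromosome, members ranged from 16 on chromosome 21 to 154 on chromosome 6, which had more than chromosome 1 with 128. On chromosome 6 members were 7.08% of all calls, and the stretch from 20 to 40 Mb, which holds the histone and major histocompatibility genes, had 62 members among 933 calls (6.65%), a share no higher than the 7.41% in the rest of the chromosome. The unpaired share of intergenic distal calls was highest on the X chromosome, with 48 unpaired and 6 paired calls (88.9%, 77.8 to 94.8%), and lowest on chromosome 16, with 38 unpaired and 36 paired calls (51.4%, 40.2 to 62.4%). The intervals of these 2 chromosomes do not overlap, but they were picked as the extremes of 23 and no test was made.

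**Figure D5:**
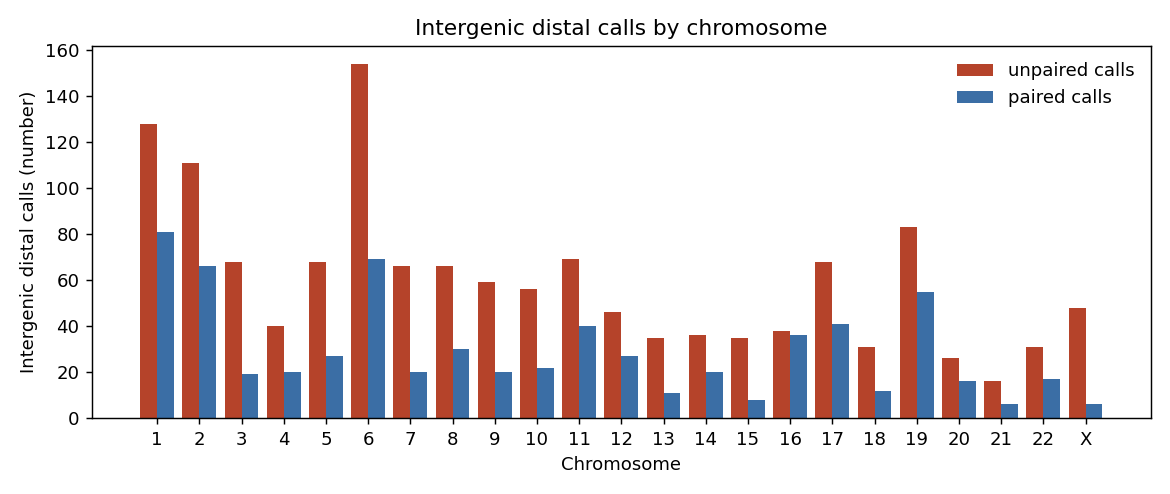
Number of unpaired (red) and paired (blue) intergenic distal calls on each chromosome. Chromosome 6 has the most unpaired calls, 154, and on the X chromosome 48 unpaired stand against 6 paired calls.

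The members farthest from any gene lay in large intergenic spaces. The farthest was a forward call at 58283913 on the X chromosome, 297582 bp from the pseudogene KRT8P17 behind it and 4495220 bp from SSBL2P ahead. Next came forward calls at 30676290 on chromosome 18, 289431 bp from a gene, and at 55989227 on chromosome 10, 241417 bp from a gene and 368000 bp from ZWINT ahead. A reverse call at 139148801 on chromosome 8 lay between COL22A1, 234760 bp ahead, and KCNK9. The fifth, at 109054513 on the X chromosome, was 227644 bp from RNU6-309P and had another call 367 bp away. Distance from genes and distance from other calls did not go together in these 5, since the call on chromosome 18 also had another call 3389 bp away.

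The most isolated members were a different set. A reverse call at 25997002 on chromosome 5 had no other call within 2930554 bp and lay 15887 bp from RNU4-43P. A forward call at 143432016 on the X chromosome, 2655588 bp from any other call, lay 1026 bp before MTND1P33, a nuclear copy of a mitochondrial gene. The other 3 were at 114059115 on the X chromosome, 115933908 on chromosome 4, which lay 11875 bp from KRT18P21, and 78068250 on chromosome 3, which had RN7SL647P behind it. Their nearest calls were 2377937, 2344614 and 2282668 bp away. In all, 26 members had no call within 1 Mb, and 2 of the 5 most isolated were on the X chromosome.

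The calls closest to the limits of the selection differed in how near their neighbours lay. Just inside the 1000 bp gene rule were calls 1001 bp before the start of SEC14L4, 1002 bp from MAB21L3 and 1002 bp past WASHC4. Just outside it were calls 998 bp past DDIT4, 996 bp from an unnamed locus and 992 bp from GFOD3P. Just inside the pairing rule were calls near HBA1, PIM1 and SEC14L4, whose upstream partners lay at 1009, 1013 and 1021 bp. Just outside it were calls with partners at 970, 938 and 913 bp, near KLF1, CRYBA4 and ZFP36L2. The nearest call of either strand to those at HBA1, PIM1 and KLF1 lay 254, 279 and 264 bp away. For those at WASHC4 and MAB21L3 it lay 62402 and 234093 bp away.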

How the data were processed

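PRO-seq start site calls of HUDEP-2 cells were analysed, as deposited for the series in 2 lists without values per library. TSScall made them on 1 sorted, de-duplicated alignment, per the file headers, with a version and read minimum not given in the sources used here. Per the submitters' processing notes, deepTools 3.5.4, SAMtools 1.17, BWA 0.7.16a and Picard were used with hg38. The score column the authors deposited was 0 in every call, and every interval was 1 base long; its end was taken as the 1-based position. Since reads per call and depth are unknown, no depth-based interval or floor is given.

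Genes came from the RefSeq table of GRCh38.p14, which shares primary coordinates with hg38 (59098 genes; outer ends, no strand). Strand came from RefSeq's promoter table, which covers 27195 of them (46.0%). A start was the outer gene end, so starts inside genes were missed except where stated. From the call positions, distances, runs and counts were computed.

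For 5 shares, unpaired and paired calls were compared by Fisher's exact test (two-sided), with p-values adjusted after Benjamini and Hochberg and a threshold of 0.05. Alternatives were other distance, pairing and run windows, protein-coding genes only, 1 strand only, runs as 1 call and list windows of 50 kb. Chosen after seeing the data were strands filled in from calls, starts from the promoter table, and calls with no same-strand call within 10 kb. Leaving out replicates was not possible without per-library values.

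Members and lists were chosen with earlier results of these data known. Genes were named where they flank the 10 longest runs, have the most members past their end (the 24 genes with at least 3 because of ties), flank the 5 farthest and 5 most isolated members or the thresholds, or belong to the lists with a member within 100 kb; the remaining names were chosen after their values were seen, and some genes that meet these rules are not reported here. The scripts were tested on simulated calls. The software was scipy 1.17.1, pandas 2.3.3, numpy 2.4.6 and matplotlib 3.10.9 under Python 3.11.15.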

Additional observations from a re-analysis of the deposited data

Results flagged for a closer look

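The lists held 94 calls on the mitochondrial genome, which the selection of members on chromosomes 1 to 22 and X leaves out. No control sample gives a level to set them against.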

How the results depend on the processing

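Of the 40 values that the 5 shares took under the alternatives, 33 kept their direction and their side of the threshold. The difference in calls within 10 kb of a gene (-11.0 to -5.66 points) and in same-strand calls within 1 kb (-15.7 to -6.79) kept both under the alternatives that could change them. In all of these alternatives paired calls were still selected by a nearby call, which bears on the same-strand difference. The share with the gene behind read toward the call ranged from -4.65 to 13.6 points: it missed the threshold for calls over 5000 bp from genes (4.95) and for forward calls (7.97), and turned for calls with no same-strand call within 10 kb (-4.65), where the facing share also missed it (-0.539). The share of genes behind called at their start turned for calls over 5000 bp from genes (-15.1), with pairing within 2000 bp (-0.236) and with protein-coding genes only (-0.703), and was 8.03 with any start of the promoter table (Fisher's exact test, adjusted p = 0.073). The causes were not tested. The number of members was 734 over 5000 bp from every gene, 669 among forward calls and 709 among reverse calls. With 50 kb windows 9 of 13 list counts were lower, and 3 of them by more than 1.5 times, at 0 lymphoid, 0 megakaryocyte and 1 neuronal gene. With strands filled in from calls, 910 members had a gene of known strand behind them. Depth is unknown, there are no replicates, and a gene behind without a strand (43.0% of members) enters no orientation share.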
